A study of Mus musculus with 15 samples.

Results

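Axon guidance ligands and receptors were followed through spatially barcoded sections of mouse embryos. The members were every measured gene whose symbol begins with Sema, Plxn, Epha, Ephb, Efna, Efnb, Robo or Unc5, the Slit genes and netrins (Ntn), plus Dcc and Nrp2. The rule found 70 genes among 30534 measured features. They comprised 34 ligands (20 semaphorins, 8 ephrins, 3 Slit genes and 3 netrins) and 33 receptors (14 Eph receptors, 10 plexins and neuropilins counted together, 5 netrin receptors and 4 Robo genes). The other 3 share only a name start with them, namely Unc50, Unc5cl and the antisense transcript Plxna4os1. Nrp1, the other neuropilin, is not covered by the rule and was not counted as a member.

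Growing axons and migrating cells steer by these proteins. Semaphorins act through plexins, for the secreted class usually with a neuropilin as co-receptor; Slit proteins act through Robo1 and Robo2; netrin-1 attracts through Dcc and repels through Unc5 receptors; ephrins are membrane-bound and signal to Eph receptors on a touching cell. The same families also work outside the nervous system, as with Plxnd1, Robo4, Ephb4 and Unc5b in vessels. The textbook case is the ventral midline of the spinal cord, where commissural axons meet netrin and Slit proteins from the floor plate.

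Transcripts had been barcoded in place on thin frozen sections through crossed microfluidic channels, so that each crossing is a pixel of 10, 25 or 50 µm. The groups were 3 libraries of E10 (embryonic day 10) embryos at 50 µm, 1 of E10 at 25 µm, 2 of E10 at 10 µm, 2 of E11 at 25 µm, 2 of E11 at 10 µm and 1 of E12 at 50 µm. No treatment or genetic change is named in the labels, and strain, sex, section plane and the part of the embryo on each section are not given in the sources used here. The labels do not say whether libraries of 1 group came from separate embryos, so p-values measure the spread between these libraries, which may in part be technical.

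Tissue pixels held 1563489 to 11998765 counts per library, with a median of 843.5 to 11332 counts per pixel. The members together took 1419 to 3098 CPM (a share of the counts of a library's tissue pixels times 1000000). Of the 70 members, 63 had at least 1 count in every library. The table of E11 10 µm library 2 holds no Dcc column, and Dcc was taken as 0 there. Summed levels of tissue markers differed widely between libraries: 9 neuron markers, all detected in every library, summed to 222 to 3263 CPM, and 9 heart muscle markers to 18.5 to 5853 CPM. What lies on each section is not given in the sources used here, and in summed counts fewer cells of a type and less RNA per cell cannot be told apart.

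Among the ligands, the membrane-bound ephrin Efnb1 had the highest level per length of all members, 45.9 CPM per kilobase of exon as a mean over libraries. It was followed among ligands by Efna4 (20.7 CPM per kilobase) and Efna5 (15.3). Among the receptors, Epha4 stood first with 17.2 CPM per kilobase, then Ephb4 with 15.1, Plxnb2 with 13.9 and Epha3 with 13.1. The receptor Plxnb3 (mean 0.178 CPM), the netrin Ntn5 (0.291 CPM) and the receptor Epha6 (0.580 CPM) were close to undetected. Whether counts rise with exon length was not tested, and the order differed without that division. By CPM alone Efnb1 (159) and Epha4 (139) still led the ligands and receptors, but Slit2 (120) was the second ligand and Efna4 had 33.1. The order within a family is a description, because counts per gene also depend on how reads were assigned, which is not given in the sources used here.

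Summed by family, the 14 Eph receptors took 677 ± 92.2 CPM at E10 (SD, n = 6), 466 ± 116 CPM at E11 (SD, n = 4) and 719 CPM in the E12 library. The 8 ephrins took 448 ± 79.6 CPM, 257 ± 49.3 CPM and 382 CPM at the same stages. The 20 semaphorins took 404 ± 52.4 CPM at E10, 348 ± 46.9 CPM at E11 and 721 CPM at E12. Ephrins were thus the family whose E10 libraries (346 to 529 CPM) and E11 libraries (183 to 284 CPM) did not overlap, while the Eph receptors of the 2 stages overlapped only between 559 and 567 CPM. Plexins and Nrp2 together were at 527 ± 73.9, 444 ± 88.5 and 540 CPM. Slit genes, at 153 ± 46.2 CPM at E10 and 167 ± 126 CPM at E11, varied more between the E11 libraries than between the stages.

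**Figure D1:**
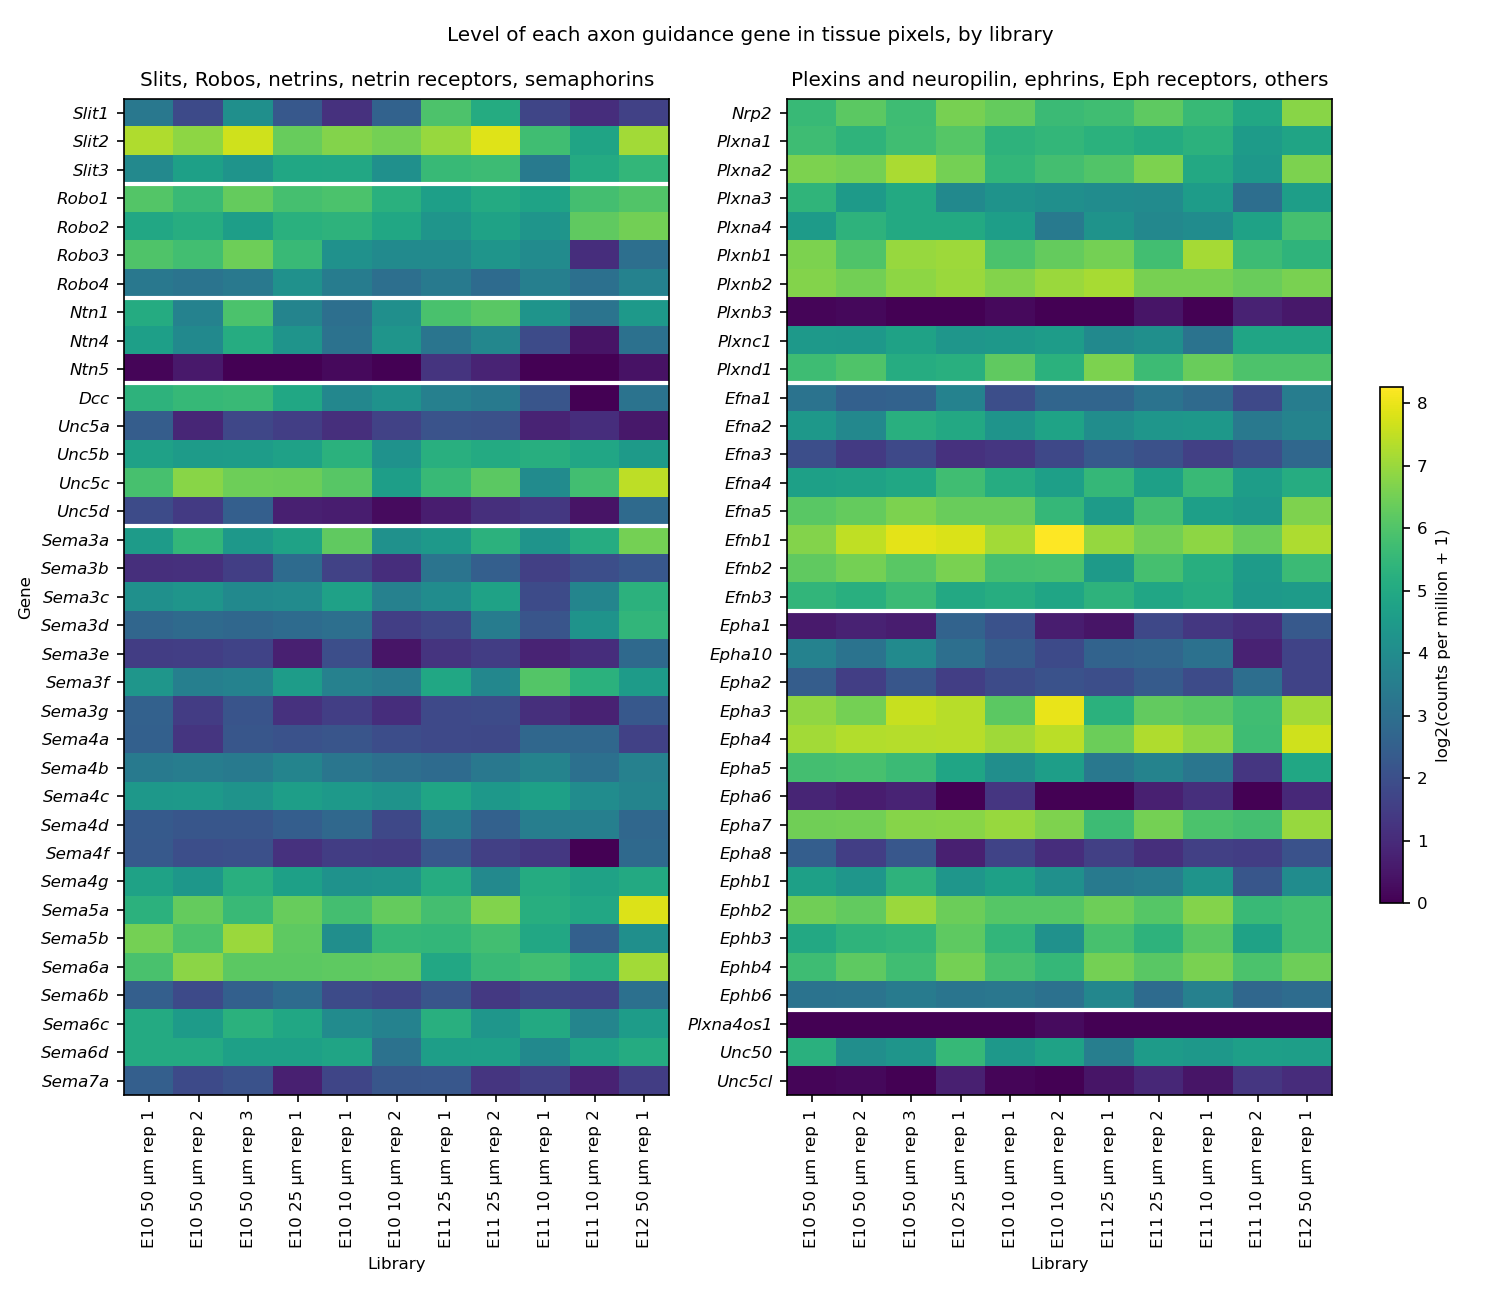
Level of every member in each of the 11 libraries, as log2 of CPM plus 1 in colour, with genes in rows by family and libraries in columns by stage and pixel width. Robo3 and Dcc are brightest in the E10 50 µm libraries, Slit1 in the E11 25 µm libraries and Sema5a in the E12 library (226 CPM).

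Spatial pattern was measured for each gene and library as Moran's I, the correlation of a gene's log2 level in a pixel with that in the 4 pixels touching it (0 for no pattern). A gene was measured in a library when at least 5% of tissue pixels held it, and ranked when measured in at least 3 libraries, which left 50 members among 11469 genes. Of these 50 members, 28 (56.0%) were in the top 10% of all genes, so the background is 10.0% by construction. The median over the members was 0.0802, against 0.0201 over all ranked genes. With every pixel thinned to 1000 counts, 21 members could be ranked and 10 were in the top 10%.

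Robo3, the divergent Robo receptor of commissural neurons, led the members with a mean Moran's I of 0.232 over 5 libraries. It ranged from 0.00941 in E11 25 µm library 2 to 0.366 in E10 50 µm library 3, so the pattern was strong in the 4 E10 libraries and near 0 in the E11 library. Epha3, an ephrin-A receptor, followed with 0.224 over all 11 libraries (range 0.0180 to 0.427), and Epha5, of the same class, with 0.222 over 5 (0.114 to 0.366). The ligands next in order were Slit1 with 0.202 over 4 libraries and Slit2 with 0.193 over 10. Dcc and its ligand Ntn1 were both at 0.174, over 3 and 6 libraries. The netrin receptor Unc5c (0.170 over 9), the semaphorin Sema5a (0.150 over 9) and Epha4 (0.144 over 11) completed the first 10. These means cover different libraries, so the order does not compare like with like. In E10 50 µm library 1 Epha3 was at 0.427 and Robo3 at 0.208, and in library 2 at 0.272 and 0.293. Dcc was measured only in the E10 50 µm libraries (0.124, 0.170 and 0.228), where Unc5c was at 0.187, 0.285 and 0.298.

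Single grid lines carried part of this pattern. In E10 10 µm library 1, 1 row held 21.7% of the Robo3 counts but 1.30% of all counts, and in E10 50 µm library 3, 1 row held 22.2% of the Epha3 counts against 4.67% of all counts. A line of the grid is also a line of the chip, and whether these rows follow tissue was not tested. With the mean of every row and column taken out, Robo3 and Slit1 both kept 0.113, Epha5 and Slit2 kept 0.0920 and 0.0918, Epha3 kept 0.0820 and Dcc kept 0.0289. With that correction 29 of the 50 members were in the top 10%. The correction shifts the whole scale. The top 10% then began at -0.00214 and the median of all ranked genes was -0.0279, against 0.0748 and 0.0201 without it. Values before and after it are therefore not on a common scale.

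**Figure D2:**
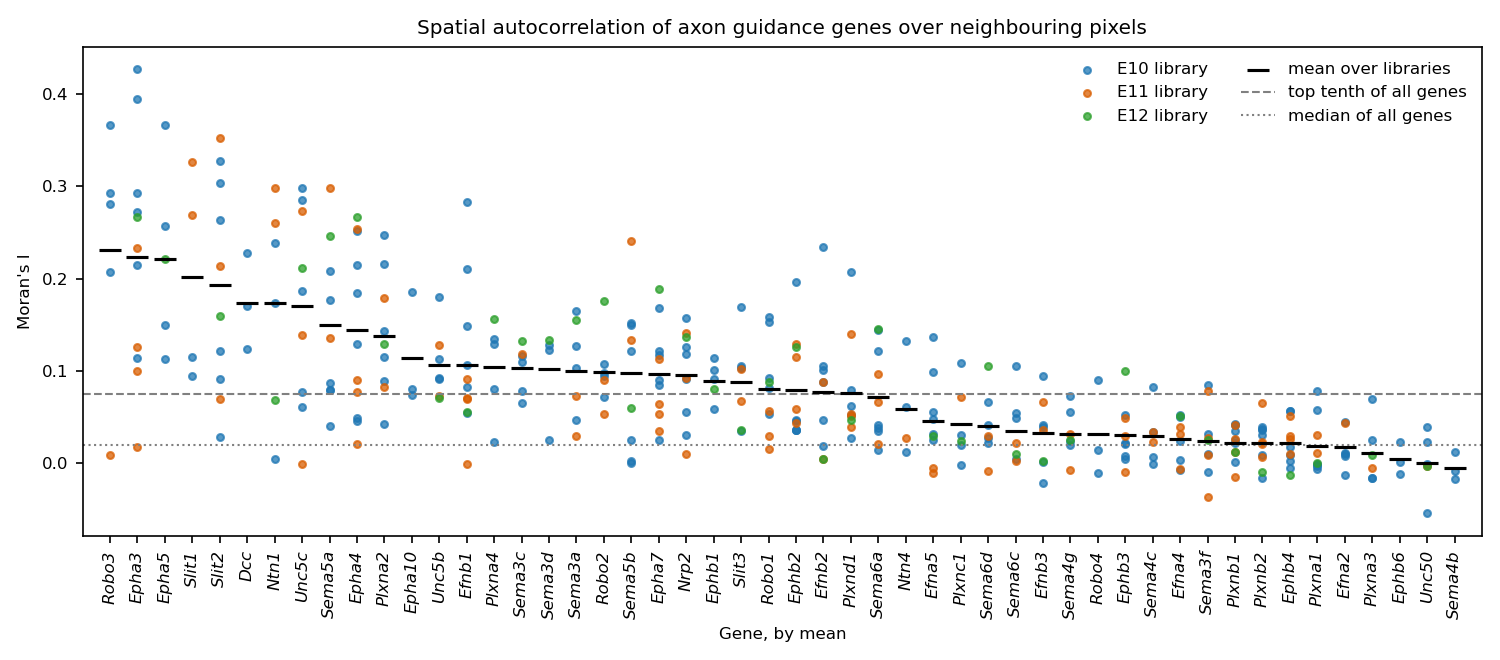
Moran's I of the 50 ranked members, in order of their mean; each point is 1 library coloured by stage, bars are means, and lines mark the top 10% and the median of all genes. Robo3, Epha3 and Epha5 have the highest means (0.232, 0.224 and 0.222), and 28 means lie above the line of the top 10%.

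**Figure D3:**
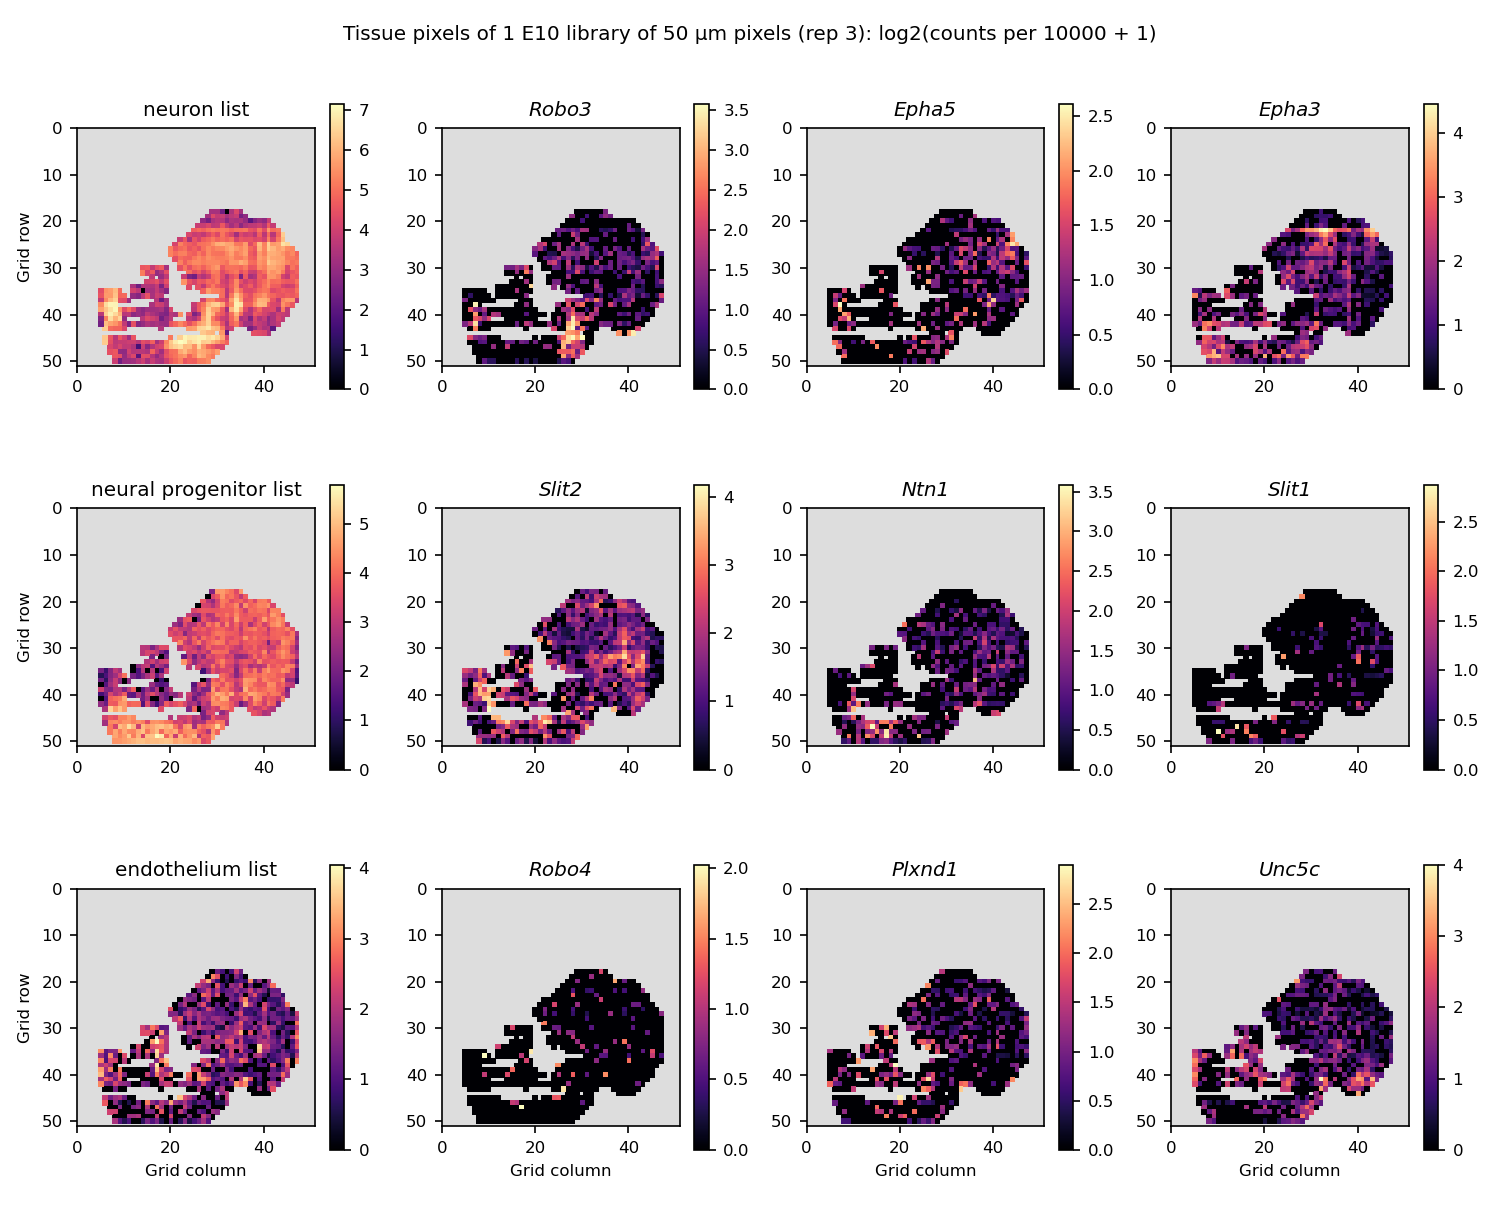
Level per tissue pixel of 3 marker lists and 9 members in E10 50 µm library 3, with grid column and row as axes and log2 of counts per 10000 plus 1 in colour, each map on its own scale. Robo3 is bright in a cluster of pixels at the lower edge where neuron markers are high, Epha3 shows 1 bright row, and Robo4 and Plxnd1 appear in scattered pixels.

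To place the members in tissue, pixels were ranked by the summed counts per 10000 of fixed marker lists. In each library the top 10% were compared with all other tissue pixels. Where fewer than 10% of pixels held a count of the list, every pixel with a count was taken. Heart muscle in E10 10 µm library 2 was such a case (65 pixels, 98 list counts). Another was floor plate and notochord in the E10 25 µm library (62 pixels, 66 list counts). The test pairs both pixel sets of a library, is fitted over all genes, and does not read the genes of the list itself. A pixel can hold several cells or part of 1, so these sets are regions by their leading genes and not cell types. Over 10 lists, 119 of 473 member tests passed an adjusted p of 0.05 (edgeR's quasi-likelihood test, Benjamini-Hochberg), 59 higher and 60 lower. That is 25.2% of the member tests, beside 9.57% of the tests of all genes over the same lists. With pixels thinned to 1000 counts the shares were 8.96% (30 of 335) and 3.32%. With 1 library left out in turn, 74 calls held and all 119 kept their direction in every fit that could be made; Slit1 in progenitor-rich and Ntn4 in endothelium-rich pixels could be fitted in 7 of 11.

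Among the members named for a region, thinning ended the calls of Unc5b in neuron-rich pixels, Sema6d, Unc5b and Plxnc1 in endothelium-rich, Unc5b, Sema3a and Sema5b in epithelium-rich, Sema3c and Epha3 in floor plate and notochord-rich, Slit3, Plxnd1 and Sema3a in heart muscle-rich, Sema5a in mesenchyme-rich and Plxnd1 and Unc5b in progenitor-rich pixels, and both calls in skeletal muscle-rich pixels. Other called members, such as Epha10 in neuron-rich, Slit1 and Ntn4 in progenitor-rich and Dcc in heart muscle-rich pixels, could not be fitted on thinned pixels. At least 1 of a top 5% or 20% cut, stricter tissue pixels, scaling by library size only or the E10 libraries alone ended the calls of Unc5b, Plxnc1 and Ntn4 in endothelium-rich, Sema3c, Sema3f, Sema3a and Dcc in epithelium-rich, Sema3c and Epha3 in floor plate and notochord-rich, Sema3a in heart muscle-rich, Sema5a in mesenchyme-rich and Robo4 in red cell-rich pixels.

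Neuron-rich pixels held more of 18 of the 48 members tested and less of 6. The background was 15.6% of all genes higher and 13.8% lower, so the share of higher members lay above that of all genes and the share of lower members did not. Epha10, an Eph receptor without an active kinase, had 0, 23.5 and 37.9 CPM (lowest, median, highest of 11 libraries) in neuron-rich pixels and 0.784, 3.25 and 12.2 CPM elsewhere. It was higher in 10 of 11 libraries, by a log2 fold change of 2.54 (SE 0.24, adjusted p = 2.48e-09 by edgeR). Dcc, the attractive netrin receptor, had 0, 64.9 and 140 CPM in neuron-rich pixels and 0, 7.25 and 42.0 CPM in the others. The gain was 2.28 on the log2 scale (SE 0.25, adjusted p = 1.36e-05 by edgeR) and was seen in all 10 libraries with a count.

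Robo3 had 0, 56.7 and 235 CPM in neuron-rich pixels and 1.18, 14.0 and 70.6 CPM in other pixels. The log2 fold change was 2.21 (SE 0.21, adjusted p = 1.5e-06 by edgeR), and E11 10 µm library 2, the library with the lowest neuron marker sum, was the exception in direction. Epha5 had 5.27, 42.6 and 165 CPM against 1.18, 17.5 and 43.6 CPM. It was higher in 11 of 11 libraries, by 1.75 on the log2 scale (SE 0.17, adjusted p = 2.87e-08 by edgeR). The transmembrane semaphorin Sema6c rose by 1.23 (SE 0.17). On the other side, the netrin receptor Unc5b fell by 0.53 (SE 0.14) and Plxnb2, a receptor of class 4 semaphorins, fell by 0.45 (SE 0.09), the latter in 11 of 11 libraries. In neuron-rich pixels 9 of 10 red cell markers and 7 of 9 mesenchyme markers were lower, and their part in the lower calls was not tested.

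A list of 55 genes that act downstream of or beside the guidance receptors was read in the same pixels, where 28 of the 52 tested rose and 4 fell. Cntn2, an axonal adhesion protein, rose by 2.86 (SE 0.37, adjusted p = 0.000158 by edgeR). L1cam, an adhesion molecule that also joins semaphorin receptor complexes, rose by 2.65 (SE 0.22), and Cdk5r1, the activator of the kinase Cdk5, by 2.25 (SE 0.19). In mesenchyme-rich, red cell-rich and endothelium-rich pixels 50 genes of this list were tested each time. Higher and lower were 6 and 10 in mesenchyme-rich pixels (8.61% and 7.78% of all genes), 2 and 16 in red cell-rich pixels (5.89% and 5.97%) and 8 and 9 in endothelium-rich pixels (7.9% and 4.39%).

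Endothelium-rich pixels held more of 9 and less of 8 of 45 members tested, beside 7.9% of all genes higher and 4.39% lower. Plxnd1, the semaphorin receptor of vessels, had 70.9, 161 and 458 CPM (lowest, median, highest) in these pixels and 30.8, 51.6 and 73.0 CPM elsewhere. Every library was higher, by a log2 fold change of 1.77 (SE 0.15, adjusted p = 3.74e-07 by edgeR). Robo4, the Robo receptor of endothelium, had 10.9, 20.9 and 50.0 CPM against 4.49, 7.60 and 15.3 CPM. It too was higher in 11 of 11 libraries, by 1.68 on the log2 scale (SE 0.22, adjusted p = 2.53e-07 by edgeR).

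Sema6d, a transmembrane semaphorin, rose by 0.92 (SE 0.15) in endothelium-rich pixels in 11 of 11 libraries. Unc5b, a netrin receptor also found on vessels, was higher by 0.57 (SE 0.18, adjusted p = 0.0287) and Plxnc1, the receptor of Sema7a, by 0.52 (SE 0.17, adjusted p = 0.0368). Both of these calls were lost in 6 of 11 fits with 1 library left out, Unc5b without any of the 3 E10 50 µm, 2 E11 25 µm or the E12 library (0.0682 to 0.167) and Plxnc1 without E10 10 µm library 1, the E10 25 µm library, E10 50 µm library 2 or 3, E11 10 µm library 2 or the E12 library (0.0537 to 0.177). Lower there were Dcc, by 1.10 on the log2 scale (SE 0.23), and the netrin Ntn4, which fell by 0.68 (SE 0.23, adjusted p = 0.0452) and lost its call without the E10 25 µm, either E11 25 µm or the E12 library (0.0505 to 0.0855), 4 of the 7 fits that could be made.

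Vessel markers did not stand alone in these pixels: 9 of 10 red cell markers, 9 of 9 heart muscle markers and 6 of 9 mesenchyme markers were also higher, and 8 of 8 neural progenitor markers were lower. Their part in the member calls was not tested. Red cell-rich pixels, in which 8 of 8 tested endothelium markers were higher, held more of 2 of 46 members (background 5.89%) and less of 16 (background 5.97%). The higher were Plxnd1, by 1.08 on the log2 scale (SE 0.12), and Robo4, by 0.95 (SE 0.23), and the largest falls were those of Ntn1, which fell by 1.02 (SE 0.20), and the receptor Ephb1, which fell by 0.94 (SE 0.23). In these pixels 9 of 9 neuron markers and 8 of 8 neural progenitor markers were lower too, and their part in the falls was not tested.

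Robo3 and Robo4 are neighbours on chromosome 9, yet were highest in different regions. Robo4 (chr9:37401897-37415115, plus strand) and Robo3 (chr9:37415669-37433246, minus strand) meet tail to tail with 553 bases between them (GENCODE, GRCm38). Their promoters are printed with those of Epha5, which was higher with Robo3 in neuron-rich pixels, and Plxnd1, which was higher with Robo4 in endothelium-rich pixels, to set the start regions of both pairs side by side. The sequences are RefSeq promoters of build GRCm38.p6, 5′ to 3′ in the direction of the gene, from 250 bases before to 50 after the start. Capitals mark GGGCGG (the core of a GC box) and CAGCTG (an E box) on either strand.
Robo3 (chr9:37433126-37433425, minus strand): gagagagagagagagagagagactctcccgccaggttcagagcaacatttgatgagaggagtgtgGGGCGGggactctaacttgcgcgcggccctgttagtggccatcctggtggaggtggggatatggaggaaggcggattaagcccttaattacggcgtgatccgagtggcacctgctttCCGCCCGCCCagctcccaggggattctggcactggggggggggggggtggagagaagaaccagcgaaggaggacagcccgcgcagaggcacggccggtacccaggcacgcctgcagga
Robo4 (chr9:37401722-37402021, plus strand): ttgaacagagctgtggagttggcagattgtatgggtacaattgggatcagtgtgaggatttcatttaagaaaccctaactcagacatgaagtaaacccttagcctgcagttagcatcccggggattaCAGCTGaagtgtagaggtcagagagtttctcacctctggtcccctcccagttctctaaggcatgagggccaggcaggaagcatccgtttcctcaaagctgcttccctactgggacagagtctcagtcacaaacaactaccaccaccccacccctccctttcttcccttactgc
Epha5 (chr5:84417333-84417632, minus strand): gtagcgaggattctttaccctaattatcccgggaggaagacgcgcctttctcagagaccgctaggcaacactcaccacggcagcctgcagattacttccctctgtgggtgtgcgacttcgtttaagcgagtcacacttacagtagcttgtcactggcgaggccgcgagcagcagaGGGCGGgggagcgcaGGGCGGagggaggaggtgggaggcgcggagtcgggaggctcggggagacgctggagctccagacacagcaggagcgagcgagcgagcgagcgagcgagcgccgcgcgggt
Plxnd1 (chr6:115994956-115995255, minus strand): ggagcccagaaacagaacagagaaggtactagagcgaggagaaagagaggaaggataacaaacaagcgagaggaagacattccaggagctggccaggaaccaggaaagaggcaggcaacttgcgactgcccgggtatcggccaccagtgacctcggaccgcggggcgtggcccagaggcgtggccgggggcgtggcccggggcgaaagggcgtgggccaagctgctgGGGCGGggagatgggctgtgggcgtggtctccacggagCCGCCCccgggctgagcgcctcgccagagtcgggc

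The Robo3 promoter holds 3 copies of GGGCGG, a pair of which overlap, Epha5 and Plxnd1 hold 2 each, and Robo4 holds none but 1 CAGCTG. The share of G and C was 63.3%, 64.3% and 67.0% in the first 3 and 50.3% in Robo4. GGGCGG occurred in 35.7% of all 32851 promoters of this length, in 46.2% of those of coding genes and in 53 of 75 promoters of the 59 members matched (70.7%), and CAGCTG in 16.3%, 15.6% and 16.0%. The 2 genes highest in endothelium-rich pixels therefore do not share these letters. A match is a description of the sequence and not a binding site.

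**Figure D4:**
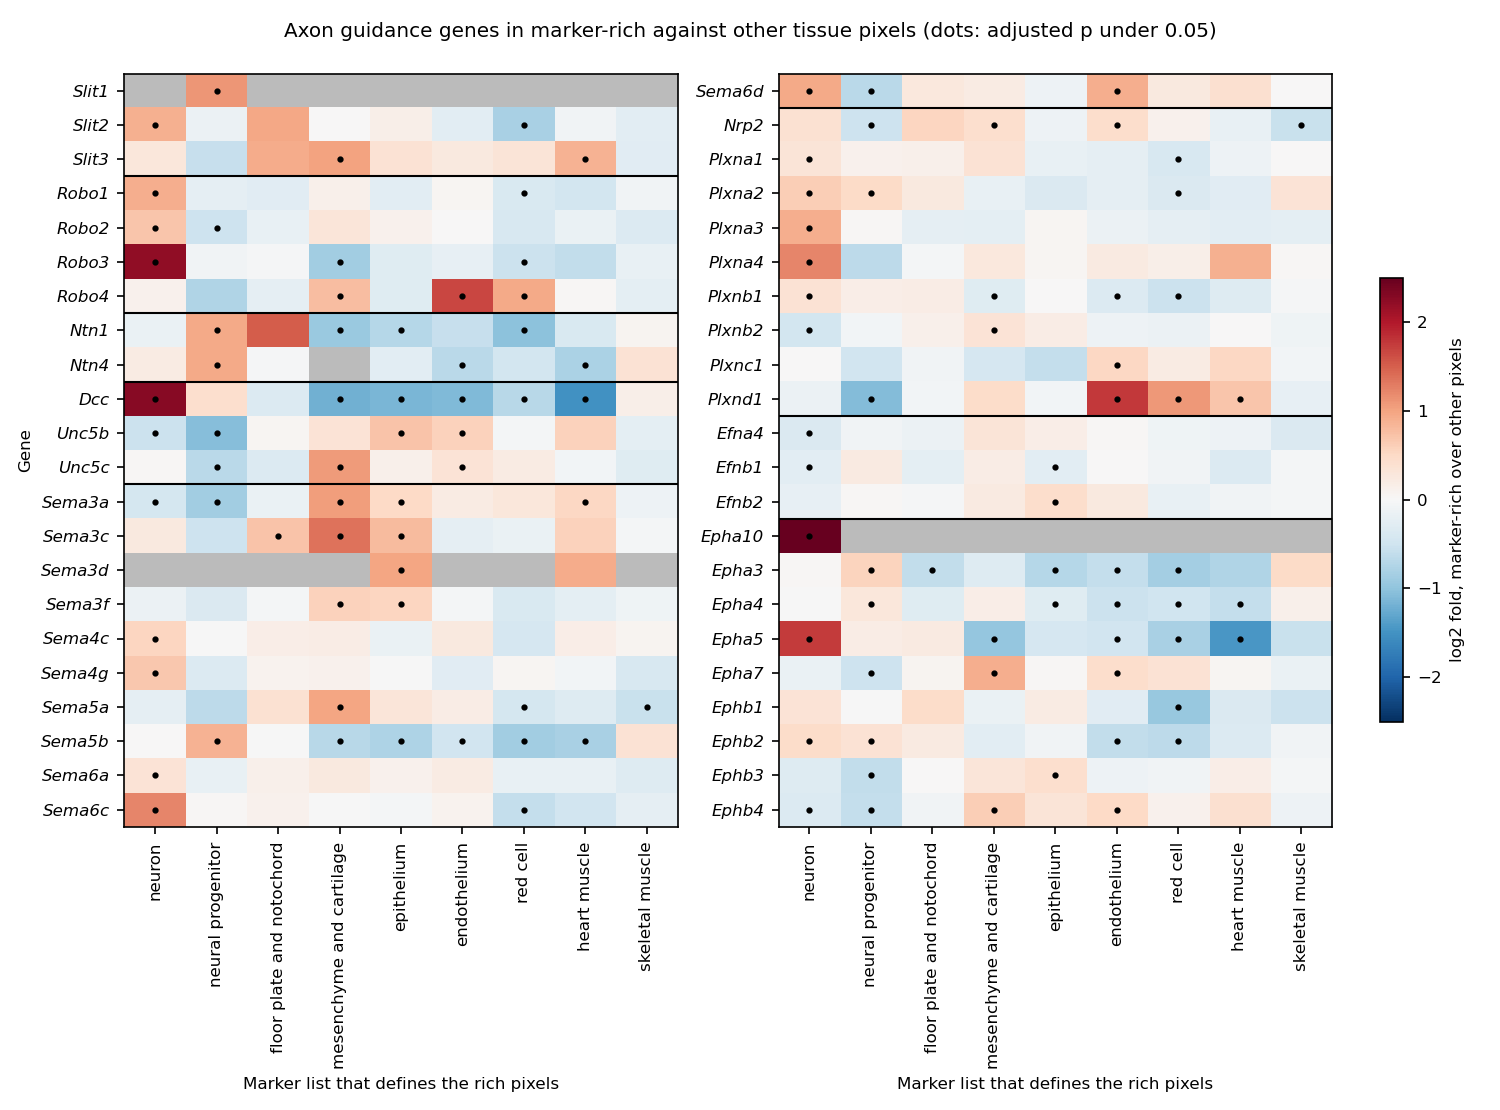
Log2 fold change between marker-rich and other pixels in colour for the 44 members with a call, with 9 marker lists in columns (liver, which gave no call, is left out); dots mark an adjusted p under 0.05 and grey cells were not tested. Robo3, Dcc, Epha5 and Epha10 are high in neuron-rich pixels, and Plxnd1 and Robo4 in endothelium-rich and red cell-rich pixels.

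Neural progenitor-rich pixels held more of 8 and less of 10 of 48 members, beside 5.31% of genes higher and 7.72% lower. The higher members were led by secreted ligands. Slit1, a repellent for axons that bear Robo receptors, had 0.833, 7.53 and 83.1 CPM (lowest, median, highest) in these pixels and 0.785, 3.60 and 58.9 CPM elsewhere, a log2 fold change of 1.10 (SE 0.25, adjusted p = 0.00411 by edgeR) with 9 of 11 libraries higher. Ntn1, the classic midline attractant, had 0, 22.2 and 176 CPM against 6.02, 18.0 and 56.0 CPM, and Ntn4 had 0, 22.2 and 65.2 CPM against 0.392, 11.3 and 30.6 CPM. The gains were 0.95 (SE 0.16) and 0.96 (SE 0.19), each in 9 of 11 libraries.

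The transmembrane semaphorin Sema5b was higher in progenitor-rich pixels in 11 of 11 libraries (log2 fold change 0.87, SE 0.12, adjusted p = 5.93e-05 by edgeR), and Epha3 by 0.56 (SE 0.11). The lower members were led by the vessel receptors Plxnd1, which fell by 1.07 (SE 0.23), and Unc5b, which fell by 1.05 (SE 0.20), both in 11 of 11 libraries. In these pixels 7 of 8 endothelium markers and 10 of 10 red cell markers were lower too, and their part was not tested. The calls of Ntn1, Ntn4, Sema5b, Epha3, Plxnd1 and Unc5b held with each library left out in turn, and that of Slit1 in the 7 fits that could be made, which do not include those without E10 50 µm library 1 or 3 or either E11 25 µm library.

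Floor plate and notochord-rich pixels gave 1 call in each direction among 47 members (background 0.405% higher and 0.179% lower). The secreted semaphorin Sema3c had 0, 23.8 and 59.2 CPM there and 2.50, 15.4 and 37.3 CPM elsewhere (log2 fold change 0.71, SE 0.18, adjusted p = 0.049 by edgeR). It lost the call in 9 of 11 fits with 1 library left out (0.0594 to 0.229), holding it without E10 10 µm library 1 or the E10 25 µm library. Epha3 fell by 0.61 (SE 0.12, adjusted p = 0.0195) and lost the call without E10 50 µm library 3 (0.0657). The netrin Ntn1, a textbook floor plate gene, was not called over all libraries together. It differed there between the stages.

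Mesenchyme and cartilage-rich pixels held more of 11 and less of 6 of 46 members, beside 8.61% of genes higher and 7.78% lower. Sema3c had 0, 39.5 and 102 CPM in them and 2.94, 14.5 and 35.5 CPM elsewhere, which was a log2 fold change of 1.36 (SE 0.19, adjusted p = 5.47e-07 by edgeR). Unc5c, a repulsive netrin receptor, had 31.5, 136 and 307 CPM against 13.4, 65.2 and 157 CPM and was higher in 11 of 11 libraries (1.07, SE 0.12). Sema3a, a secreted repellent, was higher in 10 of 11 libraries (1.05, SE 0.13) and Slit3 in 11 of 11 (1.00, SE 0.15).

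Sema5a was higher by 0.98 (SE 0.28, adjusted p = 0.0398) in mesenchyme-rich pixels and lost its call in 8 of 11 fits with 1 library left out (0.0518 to 0.081), each E10 50 µm, E11 and E12 library among them. Dcc fell by 1.19 (SE 0.38, adjusted p = 0.0398) and lost the call without E10 10 µm library 2 or any E10 25 µm, E10 50 µm or E11 25 µm library (0.0512 to 0.122). Epha5 fell by 0.97 (SE 0.22) and kept the call in all 11. Here 9 of 9 neuron markers and 8 of 8 progenitor markers were lower, and the median pixel of these regions held 0.582 times the counts of other pixels. The part of both in the lower calls was not tested.

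In epithelium-rich pixels 7 of 48 members were higher (background 1.52%) and 6 lower (background 2.19%), and 4 of the first 5 by size were secreted semaphorins. Sema3d had 0, 16.0 and 61.9 CPM there and 2.00, 5.47 and 39.7 CPM elsewhere (0.98, SE 0.22, adjusted p = 0.00318 by edgeR). Unc5b had 22.8, 39.9 and 69.6 CPM against 17.2, 24.3 and 35.6 CPM and was higher in 11 of 11 libraries (0.72, SE 0.12). Sema3c was higher by 0.79 (SE 0.19, adjusted p = 0.011) but not called without E11 25 µm library 2 (0.0543). Sema3a (0.49, SE 0.13) lost its call without E10 50 µm library 1 or E11 25 µm library 2 (0.0732 and 0.0977). Sema3f (0.53, SE 0.15) lost it in 7 of 11 fits (0.0502 to 0.143), those without any E10 25 µm, E10 50 µm, E11 25 µm or E12 library. Dcc fell by 1.14 (SE 0.22) and Sema5b fell by 0.78 (SE 0.13). In these pixels 7 of 9 neuron markers and 4 of 8 neural progenitor markers were lower, and their part in these falls was not tested.

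Heart muscle-rich pixels held more of 3 and less of 5 of 48 members (background 5.48% and 2.25%). Slit3 had 7.48, 44.3 and 103 CPM there and 9.68, 26.1 and 49.3 CPM elsewhere (0.88, SE 0.17, adjusted p = 0.00243 by edgeR), and Plxnd1 was higher by 0.68 (SE 0.15). Sema3a was higher by 0.52 (SE 0.14, adjusted p = 0.0233) and lost its call without E10 10 µm library 1 or any E10 50 µm or E11 25 µm library (0.0508 to 0.0994). Dcc fell by 1.51 (SE 0.31) and Epha5 fell by 1.46 (SE 0.29). In these pixels 7 of 9 neuron markers were lower and 3 of 8 endothelium markers higher, and their part in the calls was not tested. Of the 52 effectors tested, 1 rose and 5 fell. Mical2, an actin-regulating oxidase of the family that binds plexins, rose by 3.53 (SE 0.37, adjusted p = 0.00023 by edgeR). The largest falls among them were those of Draxin (-1.41), Pak1 (-1.05) and Cntn2 (-0.93).

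Skeletal muscle-rich pixels gave 0 higher calls (background 0.696%) and 2 lower calls (background 0.55%) among 47 members. Sema5a fell by 0.56 (SE 0.11), losing the call without E10 50 µm library 2 (0.051), and Nrp2, co-receptor of Sema3f, fell by 0.55 (SE 0.12), losing it without E10 50 µm library 1 or 2 (0.0519 and 0.0555). In liver-rich pixels, which 7 libraries gave, edgeR called 0 of 50 members higher (background 0.0443%) or lower (background 0.0%), and 19 had an unadjusted p under 0.05. The liver list had only 73 counts in E10 50 µm library 3, 61 in E10 10 µm library 1 and 136 in E11 10 µm library 1. It had 5599 to 22277 in the other libraries used. The 0 calls therefore do not show that members were unchanged in liver.

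Ligands and their own receptors were then read side by side for 49 fixed pairs. Many pairs share a gene, and the pair counts of a region were not set beside those of unmatched ligands and receptors. They are therefore a description. In neuron-rich pixels 6 of 21 ligands and 12 of 26 receptors were higher by themselves, and 3 of each were lower. Of the fixed pairs, 36 could be tested there. In 5, both partners were higher: Slit2 (0.88) with Robo1 (0.90) and Robo2 (0.70), Sema6a (0.35) with Plxna2 (0.62) and Plxna4 (1.21), and Sema6d (0.95) with Plxna1 (0.33), all as log2 fold changes. In 5, the partners went opposite ways: Sema3a (-0.45) was lower where its plexins Plxna1, Plxna2 and Plxna4 were higher, Sema4c (0.54) was higher and Plxnb2 (-0.45) lower, and Efnb1 (-0.26) was lower and Ephb2 (0.46) higher. Slit2, Robo1, Robo2, Sema6d, Plxna4, Sema4c, Plxnb2 and Ephb2 kept their calls with each library left out. Sema6a lost its call without E10 50 µm library 2 (0.0633) and Sema3a without E10 10 µm library 1, E11 25 µm library 2 or the E12 library (0.0705 to 0.0984).

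Of the other partners, 3 lost their calls in 5 to 7 of the 11 fits with 1 library left out. Plxna1 lost its call without E10 10 µm library 1, the E10 25 µm library, E10 50 µm library 1 or 2 or the E12 library (0.055 to 0.102). Plxna2 lost its own without any E10 25 µm or E10 50 µm library, E11 10 µm library 2, E11 25 µm library 1 or the E12 library (0.0568 to 0.125), and Efnb1 without E10 10 µm library 2 or any E10 25 µm, E10 50 µm or E11 25 µm library (0.0531 to 0.11).

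In progenitor-rich pixels 4 of 38 pairs went opposite ways. Slit1 was higher (1.10) and its receptor Robo2 lower (-0.52), Ntn1 was higher (0.95) and both Unc5b (-1.05) and Unc5c (-0.67) lower, and Sema3a was lower (-0.86) where Plxna2 was higher (0.48). Robo2 lost its call without E11 25 µm library 2 (0.0507), Unc5c without E10 10 µm library 1 or the E12 library (0.0506 and 0.0523), and Plxna2 without E10 50 µm library 1 or 3 or either E11 25 µm library (0.0564 to 0.0789). In mesenchyme-rich pixels the netrin pairs split: Ntn1 (-0.93) and Dcc (-1.19) were both lower, while Unc5c was higher (1.07). There Nrp2 (0.42) was higher together with Sema3c (1.36) and Sema3f (0.57), the last of which lost its call without E10 50 µm library 1, E11 10 µm library 2 or E11 25 µm library 2 (0.0749 to 0.0996).

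In red cell-rich pixels both partners were lower in 4 of 36 pairs: Slit2 (-0.82) with Robo1 (-0.39), Ntn1 (-1.02) with Dcc (-0.69), and Sema5a (-0.43) and Sema5b (-0.88) with Plxna1 (-0.41). Robo1 lost its call without either E10 10 µm library, E10 50 µm library 1 or 3 or E11 10 µm library 2 (0.0704 to 0.137), Dcc without E10 50 µm library 1 or 2 or E11 25 µm library 2 (0.0593 to 0.147), Sema5a without the E12 library (0.0724), and Plxna1 in all fits but those without E10 10 µm library 1 or E10 50 µm library 2 (0.051 to 0.113). In epithelium-rich pixels Ntn1 (-0.72) and Dcc (-1.14) were both lower, and 3 pairs were opposite: Ntn1 with Unc5b (0.72), Efnb1 (-0.27) with Ephb3 (0.42), and Efnb2 (0.43) with Epha4 (-0.30). There Ntn1, Efnb1, Ephb3 and Epha4 lost their calls in 7, 8, 3 and 8 of 11 fits, the fit without E11 25 µm library 2 among them for each (0.0505 to 0.162 over these genes). The other partners kept theirs in both regions.

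Adjacency was tested directly. For each ligand, tissue pixels that touch a pixel with that ligand's transcript, but hold none themselves, were compared with pixels that neither hold nor touch it, and each receptor was read in both sets. This could be done for 24 ligands and 46 of the 49 pairs. Over the 46 pairs the log2 fold change ran from -0.55 to 0.51 with a median of 0.03, against -0.00 over all genes, and 26 pairs were above 0. The 95% interval lay within 1 log2 unit of 0 in 45 of the 46, so a change of that size in a receptor beside its ligand lay outside the interval for those. Members read beside any of the ligands gave 18 higher calls (1.42%) and 11 lower (0.866%) in 1270 tests, beside 0.362% and 0.529% of all genes.

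The called pair was Efna5 and Epha5, a membrane-bound ligand and its receptor. Epha5 had 0, 27.1 and 64.2 CPM (lowest, median, highest of 11 libraries) in pixels beside Efna5 and 1.70, 19.9 and 51.2 CPM away from it. It was higher beside the ligand in 10 of 11 libraries, by 0.51 on the log2 scale (95% interval 0.225 to 0.789, adjusted p = 0.0439 by edgeR). The call was lost in 9 of 11 fits with 1 library left out (0.0517 to 0.197) and held without E10 10 µm library 2 or E11 10 µm library 2. Pixels beside Efna5 were also deeper, with a median of 1.39 times the counts per pixel of those away from it; with pixels thinned to 1000 counts the log2 fold change was 0.15 (adjusted p = 0.999). In pixels holding Efna5 themselves it was 0.07 (adjusted p = 0.979).

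The largest negative value was that of Unc5c beside Ntn1, at -0.55 (95% interval -0.866 to -0.225, adjusted p = 0.0685), with 2 of 10 libraries higher. It did not pass, and neither did Nrp2 beside Sema3g (0.42, adjusted p = 0.0771, higher in 5 of 5 libraries). In all, 8 pairs had an unadjusted p under 0.05, 6 above 0 and 2 below. Reading each receptor in the ligand's own pixels instead, edgeR called 0 of 42 pairs, and 11 had an unadjusted p under 0.05. Among members that are not partners of the ligand in the fixed list, Dcc was higher beside Sema5b (0.93, SE 0.16, adjusted p = 0.000482) and Slit1 beside Sema3c (0.96, SE 0.16, adjusted p = 0.00261), both named after their values were seen. Over all 24 ligands, pixels beside a ligand were 1.30 times as deep in the median as those away, and the part of depth in these calls was not tested.

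**Figure D5:**
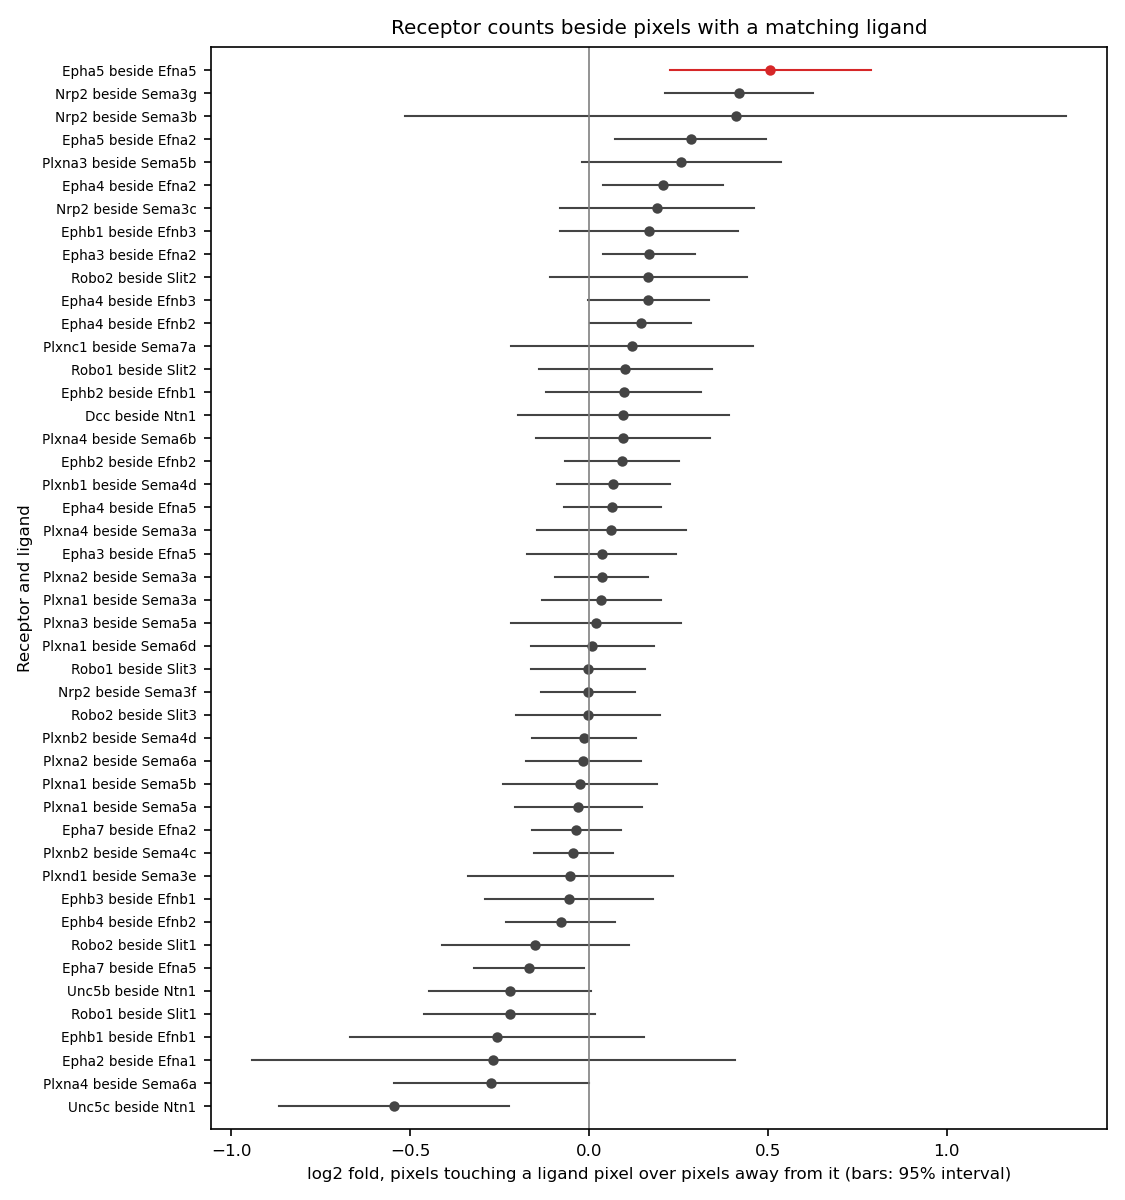
Log2 fold change of the receptor of each of the 46 tested pairs in pixels beside against away from its ligand, with bars for the 95% interval and the called pair in red. Epha5 beside Efna5 is highest (0.51), Unc5c beside Ntn1 is lowest (-0.55), and only Nrp2 beside Sema3b has an interval that reaches past 1.

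Stages were compared on the summed tissue counts, with 65 of 70 members tested. From E10 to E11, over the 10 and 25 µm libraries, 2 members were called and both were lower, beside 3.6% of all genes called in either direction. The lone E10 25 µm library is assumed to vary like the other groups. It could not be left out in turn, so 10 such fits were made. The median log2 fold change of the members was -0.07, against 0.05 over all genes, and 15 members had an unadjusted p under 0.05. Dcc had 29.4, 13.2 and 17.6 CPM in the E10 libraries compared (25 µm, then 10 µm libraries 1 and 2) and 11.1, 9.38, 3.50 and 0 CPM in the E11 libraries (25 µm, then 10 µm). The groups did not overlap, which was so for 7 of the 65 members tested. The share over all genes was not counted, so a lack of overlap is given here and below as a description only. The log2 fold change of Dcc was -2.24 (SE 0.47, adjusted p = 0.0269 by edgeR). The call was lost without E10 10 µm library 2, E10 50 µm library 1 or 3 or either E11 25 µm library (0.0506 to 0.104). It was kept at -1.74 without E11 10 µm library 2, the library with no Dcc column. Without E11 10 µm library 1, which leaves that 0 alone in its group, the value was -5.55.

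Epha5 had 28.1, 16.0 and 24.0 CPM in the same E10 libraries and 8.88, 11.9, 8.56 and 1.46 CPM in the E11 libraries, again without overlap. Its log2 fold change was -1.63 (SE 0.39, adjusted p = 0.0418 by edgeR). The call was lost without E10 10 µm library 2, any E10 50 µm library, E11 10 µm library 2 or either E11 25 µm library (0.0597 to 0.153) and with pseudogenes, Gm and Rik genes left out (0.0625). The value moved to -2.48 without E11 10 µm library 1. Of the 55 effector genes 4 were called, all lower, the first 3 by size being Pak3 (-2.68, adjusted p = 0.0339), Cdk5r1 (-1.81, adjusted p = 0.0401) and L1cam (-1.47, adjusted p = 0.0232). The neuron marker sum was 821 to 1649 CPM in these E10 libraries and 222 to 858 CPM in the E11 libraries. Its part in the falls was not tested.

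Between the E12 library and the 3 E10 libraries of 50 µm, 1 member was called, beside 2.14% of all genes. Sema5a, which can attract or repel axons, had 38.8, 78.2 and 47.2 CPM in the E10 libraries and 226 CPM at E12, a log2 fold change of 1.99 (SE 0.43, adjusted p = 0.0319 by edgeR). The lone E12 library is assumed to vary like the other groups. The call was lost without E10 50 µm library 1 or 3 or either E11 25 µm library (0.0557 to 0.128). Robo3 had 62.9, 53.4 and 85.3 CPM at E10 and 7.08 CPM at E12 (-3.28, adjusted p = 0.0859) and Dcc 39.8, 45.2 and 46.9 CPM and then 7.85 CPM (-2.53, adjusted p = 0.087); neither passed. The effector Draxin, a secreted repellent that binds Dcc, was lower (-1.89, adjusted p = 0.0483). Red cell markers summed to 89866 CPM at E12 against 14988 to 32960 CPM in the other libraries.

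Libraries that differ in pixel width at a given stage are also separate libraries of unstated tissue, so width and tissue cannot be told apart. At E10, edgeR called 0 members between 10 and 50 µm (background 0.11%), 10 had an unadjusted p under 0.05, and DESeq2 called 4. At E11, 3 members were called between 10 and 25 µm, all lower at 10 µm, beside 2.07% of all genes. Slit2 had 126 and 229 CPM at 25 µm and 52.1 and 27.4 CPM at 10 µm (-2.28, SE 0.39, adjusted p = 0.0098 by edgeR). Plxna2, a receptor of Sema6a, had 64.2 and 97.4 CPM against 30.7 and 20.1 CPM (-1.79, SE 0.35, adjusted p = 0.0191 by edgeR). Slit1 had 60.2 and 32.7 CPM against 2.33 and 1.09 CPM (-4.88, SE 0.99, adjusted p = 0.037 by edgeR).

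With 2 libraries a side, the groups stood apart for 21 of the 65 members tested, Slit1, Slit2 and Plxna2 among them. Groups this small often stand apart by order alone, and the share over all genes was not counted. Nothing is therefore drawn from that count. Each of the 3 calls was lost without at least 2 of the libraries in turn. Slit2 and Plxna2 lost theirs without E11 10 µm library 2 or E11 25 µm library 2 (0.0668 and 0.144 for Slit2, 0.132 and 0.203 for Plxna2), and Slit1 without E10 50 µm library 1 or any E11 library (0.0778 to 0.176). Leaving out pseudogenes, Gm and Rik genes ended all 3 calls (0.0558 for Slit2, 0.134 for Plxna2, 0.201 for Slit1), and stricter tissue pixels (0.0529) or the replicate number as a block (0.0504) ended that of Slit1. Draxin (-2.45), Cntn2 (-2.11) and Srgap3 (-1.80), a GTPase-activating protein that binds Robo, were the called effectors, all lower at 10 µm. Floor plate and notochord markers summed to 145 and 199 CPM at 25 µm and 27.6 and 47.4 CPM at 10 µm, and neural progenitor markers to 733 and 826 CPM and to 615 and 44.9 CPM. Their part was not tested. When the E11 against E10 change was compared between the 10 and 25 µm libraries, edgeR called 0 members (background 0.137%), 4 had an unadjusted p under 0.05, and DESeq2 called 1.

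Since the summed neuron markers differed between libraries, the same comparisons were repeated inside the neuron-rich pixels alone. This step was added after the whole-section values were known. Taking the top 10% of each library does not equalise neuron content. Neuron markers there took 77.1, 43.2 and 38.3 counts per 10000 in the E10 libraries compared. They took 32.0, 53.3, 24.7 and 17.4 in the E11 libraries (25 µm, then 10 µm). In the E10 50 µm libraries they took 104, 71.5 and 86.3, and 56.4 at E12. The part of these differences in the calls was not tested. The repeat tested 55 members. From E10 to E11, 4 were called, beside 1.31% of all genes. The lone E10 25 µm library could not be left out here either. Robo3 had 166, 89.2 and 56.7 CPM in the E10 libraries compared and 33.6, 44.1, 23.4 and 0 CPM in the E11 libraries, without overlap (log2 fold change -2.24, SE 0.45, adjusted p = 0.00804 by edgeR). Dcc had 140, 64.9 and 77.4 CPM against 58.2, 47.0, 14.1 and 0 CPM, also without overlap (-2.24, SE 0.48, adjusted p = 0.0134 by edgeR). Without E11 10 µm library 2 Dcc was not called (0.0953), and Robo3 was not called without that library or E11 25 µm library 1 (0.0506 to 0.0511). Without E11 10 µm library 1, which leaves a 0 alone in its group, the values were -5.28 for Robo3 and -4.92 for Dcc.

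Efnb2, a transmembrane ephrin, had 108, 70.6 and 102 CPM at E10 and 8.96, 35.3, 42.2 and 10.5 CPM at E11 in neuron-rich pixels (-1.85, SE 0.45, adjusted p = 0.0342 by edgeR). It lost the call without E10 10 µm library 2, E11 25 µm library 1 or E11 10 µm library 2 (0.0686 to 0.153). Ntn1 went the other way, with 6.37, 4.87 and 1.89 CPM at E10 and 62.7, 66.1, 37.5 and 5.27 CPM at E11, where the lowest E11 library overlapped the E10 range (2.96, SE 0.74, adjusted p = 0.0411 by edgeR). These Ntn1 levels rest on 1, 6 and 1 counts at E10. Its call was lost without E10 50 µm library 1, E10 10 µm library 2, either E11 25 µm library or E11 10 µm library 1 (0.0557 to 0.433), and the value was 1.95 without the last of these. Epha5, called over whole sections, was not called here (-0.52, adjusted p = 0.645).

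In the same pixels Robo3 was lower at E12 than in the E10 50 µm libraries, with 33.5 CPM against 164, 226 and 235 CPM (-2.73, adjusted p = 0.0163 by edgeR, 0.0587 without E10 50 µm library 3), beside 0.807% of all genes called. Sema5a was not called there (1.27, adjusted p = 0.434). Between 10 and 50 µm at E10, where 1.0% of genes were called, Epha5 was lower at 10 µm (-2.15, adjusted p = 0.0112) and so was Slit2 (-1.90, adjusted p = 0.016). Epha5 lost this call without E10 50 µm library 1 or either E10 10 µm library (0.0654 to 0.0978), and Slit2 without E10 50 µm library 1 or E10 10 µm library 2 (0.0898 and 0.195).

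Between 10 and 25 µm at E11, beside 0.79% of genes called, Slit2 had 42.2 CPM in both 10 µm libraries and 244 and 557 CPM in the 25 µm libraries (-3.35, adjusted p = 0.000796 by edgeR). This call held with each of the 11 libraries left out. Slit1 had 62.7 and 33.8 CPM at 25 µm and no count in the neuron-rich pixels at 10 µm, where 3 counts over both libraries would be 7.44 CPM. It was thus at least 6.48-fold lower than the 25 µm mean of 48.3 CPM (adjusted p = 0.021 by edgeR, lost without any 1 of the 4 E11 libraries at 0.0894 to 0.192). For the stage change at 10 against 25 µm, edgeR called 0 members in neuron-rich pixels (background 0.0%), and 7 had an unadjusted p under 0.05.

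Whether a member's regional pattern itself differed between E10 and E11 was tested as a stage by region term, also added after the first results. Of all genes and lists, 0.255% passed, and 5 member tests did. In mesenchyme-rich pixels Slit2 was higher than in other pixels in 1 of 6 E10 libraries, with medians of 63.1 CPM and 113 CPM, and in 4 of 4 E11 libraries, with medians of 186 CPM and 82.4 CPM. The stages differed by 1.42 on the log2 scale (SE 0.21, adjusted p = 9.7e-05 by edgeR), and this held with each of the 10 libraries left out. Sema5a in the same pixels, higher in 4 of 6 and 4 of 4 libraries, differed by 1.65 (SE 0.27, adjusted p = 0.00268) but not without E11 25 µm library 2 (0.091).

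In floor plate and notochord-rich pixels, Ntn1 had 41.8, 17.3, 143, 0, 4.98 and 15.5 CPM in the E10 libraries and 297, 396, 40.5 and 12.3 CPM in the E11 libraries. Against other pixels it was higher in 3 of 6 E10 libraries and in 4 of 4 E11 libraries, a difference of 2.10 on the log2 scale (SE 0.40, adjusted p = 0.0227 by edgeR). This was lost without E10 50 µm library 1 or 2, E10 10 µm library 2 or either E11 25 µm library (0.0643 to 0.274). Sema5a in these pixels differed by 0.86 (SE 0.22, adjusted p = 0.0459) and was lost without any E10 library or either E11 25 µm library (0.0604 to 0.513). In heart muscle-rich pixels Robo2 was higher in 6 of 6 E10 libraries and in 0 of 4 E11 libraries. This difference of -2.35 (SE 0.44, adjusted p = 0.0177 by edgeR) was lost without any E10 50 µm or E11 25 µm library or E11 10 µm library 2 (0.0531 to 0.127). Robo2 was nearly equal in the E10 25 µm library (37.9 against 36.4 CPM) and E10 10 µm library 1 (40.5 against 39.7 CPM). Heart muscle markers summed to only 18.5 CPM in E10 10 µm library 2 and 76.2 CPM in E11 10 µm library 1. The parts of the embryo on the sections of each stage are not given in the sources used here. The E10 libraries also include those at 50 µm, a width no E11 library has. Stage, pixel width and section plane therefore cannot be told apart.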

How the data were processed

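The authors deposited a table of whole-number counts per gene and pixel for each of the 11 transcript libraries. Per the submitters' processing notes CASAVA 1.8.2 and the build GRCh38 were named; GRCh38 is a human build, while the columns carry mouse symbols, and aligner, annotation, use of strand and collapsing of duplicates are not given in the sources used here. The 4 antibody libraries were not used.

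Pixels whose total reached 0.1 of the library's 95th percentile were kept as tissue, and counts were summed per library, or per library and pixel set. The main test was edgeR's quasi-likelihood F test (edgeR 4.0.16 in R 4.3.3, with limma 3.58.1), run robustly after TMM scaling and edgeR's own low-count filter: 6 group means over 11 libraries (18233 genes, 5 residual degrees of freedom), or marker-rich against other and beside against away with the library as a block. Pixel sets needed 20 pixels and 50 list counts for regions, and 30 pixels and 20 ligand counts in at least 4 libraries for adjacency. P-values are two-sided, Benjamini-Hochberg adjusted over all genes of a fit, with 0.05 as the threshold. The SE is the log2 fold change divided by the square root of F, and intervals use the fit's degrees of freedom. The code was tested on simulated counts. CPM are shares of tissue counts times 1000000, and a floor is 3 counts; both cover counting error only.

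Members, marker lists, pairs and the list of 55 effectors were chosen with earlier results of these data known. Named were up to 8 called members per direction between groups, up to 5 higher and 2 lower per marker list, the 10 highest by Moran's I, called receptors of the fixed pairs and up to 3 called effectors per direction; partners of pairs in which both were called are named as well. Libraries of a group are numbered in accession order except at E11, where titles give numbers. The repeats within neuron-rich pixels and the stage by region term were chosen after seeing the data. Figures were drawn with Python 3.11.15 and matplotlib 3.10.9.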

Additional observations from a re-analysis of the deposited data

Results flagged for a closer look

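A difference in regional pattern between E10 and E11 was found for 5 member tests by a term of stage by region (edgeR's quasi-likelihood test, adjusted over all genes and chosen after the first results were seen). Each value is the log2 ratio of marker-rich to other pixels at E11 minus that at E10. In mesenchyme-rich pixels it was 1.42 for Slit2 (adjusted p = 9.7e-05; rich pixels higher in 1 of 6 E10 and 4 of 4 E11 libraries) and 1.65 for Sema5a (adjusted p = 0.00268; 4 of 6 and 4 of 4). In floor plate and notochord-rich pixels it was 2.10 for Ntn1 (adjusted p = 0.0227; 3 of 6 and 4 of 4) and 0.86 for Sema5a (adjusted p = 0.0459; 5 of 6 and 3 of 4). In heart muscle-rich pixels it was -2.35 for Robo2 (adjusted p = 0.0177, 6 of 6 and 0 of 4). Heart muscle markers summed to only 18.5 CPM in E10 10 µm library 2 and 76.2 CPM in E11 10 µm library 1. With each of 10 libraries left out in turn, Slit2 was called in every fit, Sema5a in mesenchyme-rich pixels in all but the fit without E11 25 µm library 2 (0.091), and the others lost the call in 5, 8 and 6 fits for Ntn1, Sema5a and Robo2. A check for single libraries far from the rest of their stage found none among the 22 groups of values tested.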

How the results depend on the processing

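No member changed direction under any alternative run. Between E11 and E10, where 2 members were called, DESeq2 called 7, no filter on low counts gave 11, leaving out pseudogenes, Gm and Rik genes gave 1 (Epha5 lost), neuron-rich pixels gave 4, and fits without 1 library gave 0 to 6. Between E12 and E10 (1 called), DESeq2 gave 5, no filter 11 and fits without 1 library 0 to 7. Between 10 and 50 µm at E10 (0 called), DESeq2 gave 4, no filter 9, neuron-rich pixels 2 and fits without 1 library 0 to 2. Between 10 and 25 µm at E11 (3 called), DESeq2 gave 6, no filter 10, leaving out pseudogenes 0 and fits without 1 library 0 to 8. For the difference of the stage change between widths (0 called), DESeq2 gave 1 and no filter 3. With the replicate number as a block within E11, 2 members were called between the widths, Slit1 missing the threshold (adjusted p = 0.0504); same-numbered E11 libraries share only a number (correlation of their differences 0.0544 over 2 pairs). Regional calls (119 of 473) were 30 of 335 with pixels thinned to 1000 counts and 90 to 124 without 1 library. The adjacency call (1 of 46) was 0 of 45 with E10 libraries only, 0 of 38 with at least 2 ligand counts per pixel, 0 of 42 in the ligand's own pixels, 0 of 30 when thinned and 0 to 1 without 1 library. Members in the top 10% by Moran's I (28 of 50) were 10 of 21 when thinned and 25 to 29 without 1 library. The cause of these shifts was not tested, apart from thinning, which leaves fewer counts, pixels and genes. For single genes and pairs, 1001 alternative values kept their side of the threshold or moved within the spread, 193 lost the call and 6 values of Moran's I moved further. Depth limits the 25 µm E10 and the 10 µm E11 libraries most.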
